A study of Mus musculus with 4 samples.

Results

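The 10 genes described here encode the enzymes of the pentose phosphate pathway and 3 enzymes that oxidise malate or isocitrate, in mouse peritoneal macrophages with and without Ch25h. They were chosen by name and function, with earlier results of these data known, and each of the 10 was matched to 1 of the 23735 loci in the deposited table. All 10 were among the 10074 loci tested, which had to average 1 FPKM or more (fragments mapped to a transcript, scaled by its length and by the depth of the library). The Ch25h_KO group held 2 libraries of genotype ApoE-/-/Ch25h-/-, and the Ch25h_WT group held 2 libraries of genotype ApoE-/-/Ch25h+/+. Ch25h encodes cholesterol 25-hydroxylase, which makes the oxysterol 25-hydroxycholesterol. Both groups came from C57BL/6 mice 6 weeks old and labelled as lacking apolipoprotein E, so no group here has an intact Apoe label. The cells had been elicited by an injection of 3% thioglycolate, a sterile irritant, 3 days before collection, and were then cultured in medium with serum. The series names 12 mice per group and biological duplicates. It does not say how mice were divided between libraries, so the p-values rest on the spread between libraries alone, which may be partly technical.

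The pentose phosphate pathway leaves glycolysis at glucose 6-phosphate. Its oxidative branch yields NADPH and ribulose 5-phosphate, and its non-oxidative branch exchanges sugar phosphates between ribose 5-phosphate, used for nucleotides, and intermediates of glycolysis. Macrophages spend NADPH on the oxidative burst, on nitric oxide synthesis, on reducing glutathione and thioredoxin, and on making fatty acids and sterols. Cytosolic malic enzyme (Me1) and isocitrate dehydrogenase (Idh1) are further sources of cytosolic NADPH, while the mitochondrial malic enzyme Me2 works mainly with NAD+.

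The libraries were checked against their labels first. Ch25h was 4.25 and 5.53 FPKM in the Ch25h_KO libraries and 63.3 and 65.3 FPKM in the Ch25h_WT libraries. Apoe was 3683 and 3373 FPKM in Ch25h_KO and 614 and 610 FPKM in Ch25h_WT, although all 4 libraries were labelled ApoE-/-, so a difference between the groups at Apoe cannot be told apart from the loss of Ch25h. All 7 macrophage markers were detected and 0 passed the adjusted threshold with limma. At a limma unadjusted p under 0.05 there was 1, on the higher side, where 9.38% of all loci were. The groups overlapped for Cd68, Itgam, Lyz2 and Mertk. Adgre1, listed as Emr1, was 381 and 388 FPKM in Ch25h_KO, below the 418 and 425 FPKM of Ch25h_WT. Csf1r was 274 and 291 FPKM in Ch25h_KO, below the 306 and 316 FPKM of Ch25h_WT. Fcgr1 was 4.83 and 4.78 FPKM in Ch25h_KO, above the 4.31 and 4.22 FPKM of Ch25h_WT. The depth implied by the steps of low values was 10100000 and 9450000 fragments in the Ch25h_KO libraries, and 12300000 and 9820000 in the Ch25h_WT libraries. No label gave a batch or a date.

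Of the 10 enzyme genes, 0 passed the threshold of an adjusted p under 0.05 (limma on log2(FPKM + 1), Benjamini-Hochberg over all loci), where 0.437% of all loci passed. At an unadjusted p under 0.05 there were 3 on the lower side (Idh1, Pgd and Me2), where 11.5% of all loci were, and 0 on the higher side, where 9.38% were. The Ch25h_KO libraries lay wholly below the Ch25h_WT libraries for 6 of the 10 genes and wholly above for 1 (Pgls), against 30.3% and 23.4% of all loci, and the groups overlapped for 3 (G6pdx, Rpia and Me1). The median log2 change of the 10 genes was -0.060, and that of all loci was -0.014. In bulk RNA such as this, fewer cells of a type and less RNA per cell cannot be told apart.

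**Figure D1:**
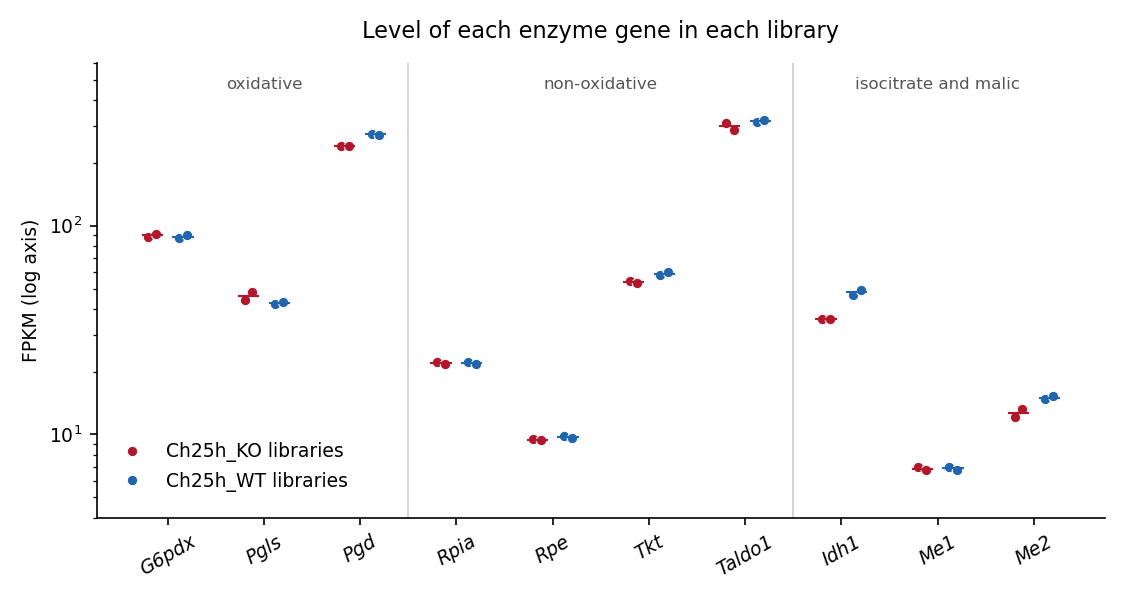
FPKM of each enzyme gene (log axis), with a point for each library, a short line at the mean of each group, and Ch25h_KO on the left of Ch25h_WT. Idh1 is the gene with the widest gap, at 35.7 and 35.6 FPKM in Ch25h_KO and 46.7 and 49.4 FPKM in Ch25h_WT, while for Rpia and for Me1 the points of the 2 groups lie at the same height.

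Promoter sequences are shown for 4 of the genes, which do not span the range of levels or changes. They are Idh1 and Pgd, which had the smallest p of the set, and G6pdx and Me1, whose groups overlapped. Rpia, whose groups also overlapped, is not shown. The windows are those of RefSeq on GRCm38.p6, which is not the build of the deposited table (mm9), and they run 5′ to 3′ from 250 bases before the first listed start to 30 bases after it. All 4 lie on the minus strand: Idh1 at chr1:65186450-65186729, Pgd at chr4:149166676-149166955, G6pdx at chrX:74428851-74429130 and Me1 at chr9:86695885-86696164. Capitals mark the core of the antioxidant response element, TGACNNNGC, read on either strand, which is the element that the factor NRF2 binds.
Idh1: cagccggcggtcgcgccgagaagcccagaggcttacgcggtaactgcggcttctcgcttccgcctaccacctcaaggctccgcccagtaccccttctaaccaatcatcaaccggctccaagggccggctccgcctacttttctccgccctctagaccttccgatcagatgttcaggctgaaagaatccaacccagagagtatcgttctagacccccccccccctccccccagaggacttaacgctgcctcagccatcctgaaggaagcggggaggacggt
Pgd: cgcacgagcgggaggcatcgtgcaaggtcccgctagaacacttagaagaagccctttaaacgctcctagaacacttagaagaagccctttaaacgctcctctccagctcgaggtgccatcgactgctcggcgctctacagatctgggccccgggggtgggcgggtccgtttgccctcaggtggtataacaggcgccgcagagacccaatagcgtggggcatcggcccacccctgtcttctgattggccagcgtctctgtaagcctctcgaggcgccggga
G6pdx: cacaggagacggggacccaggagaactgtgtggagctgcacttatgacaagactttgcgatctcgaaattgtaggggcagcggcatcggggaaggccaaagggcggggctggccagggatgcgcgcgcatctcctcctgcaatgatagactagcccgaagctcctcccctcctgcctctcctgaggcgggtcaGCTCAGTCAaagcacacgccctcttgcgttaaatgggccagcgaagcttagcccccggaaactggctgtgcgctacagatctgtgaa
Me1: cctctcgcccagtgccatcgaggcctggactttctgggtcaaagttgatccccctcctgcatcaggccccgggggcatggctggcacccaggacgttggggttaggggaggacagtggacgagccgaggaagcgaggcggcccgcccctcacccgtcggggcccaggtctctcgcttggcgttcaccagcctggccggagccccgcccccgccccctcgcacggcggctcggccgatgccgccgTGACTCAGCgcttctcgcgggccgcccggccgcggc

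RefSeq windows were matched for 9 of the 10 genes, 12 windows in all with alternative starts. The core TGACNNNGC began 57 bases before the G6pdx start on the minus strand of the window and 6 bases before the Me1 start on its plus strand. It was also found at a later start of Pgd, and so in 3 of the 12 windows, where 12.4% of all 32851 windows held it. No window of Pgls, Rpia, Rpe, Tkt, Taldo1 or Idh1 held it, so it was absent from a gene whose groups overlapped (Rpia) as well. The core followed by a further A was found at that later Pgd start and in 3.04% of all windows. The core of the hypoxia response element, ACGTG, which includes matches within the E-box CACGTG, was found for G6pdx, from base 30 after its start and so past the end of the stretch shown, and in a later Me1 window. It was found in 19.6% of all windows, and in 13.6% when matches inside CACGTG were left out. The sterol response element TCACNCCAC was in 0 of the 12 windows and in 1.24% of all windows. Apart from the core and its longer form at Pgd, no match overlaps another, and matches describe letters in a window, not binding.

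The oxidative branch was examined first, in the order of its reactions. G6pdx encodes glucose-6-phosphate dehydrogenase, the step that commits glucose 6-phosphate to the pathway and makes the first NADPH. It was 88.6 and 91.3 FPKM in the Ch25h_KO libraries and 86.9 and 90.1 FPKM in the Ch25h_WT libraries. The groups overlapped, and the log2 change of 0.023 (SE 0.055) had a 95% interval from -0.12 to 0.17, that is a fold between 0.918 and 1.12 on the FPKM + 1 scale. The autosomal copy G6pd2 was listed at 0 in all 4 libraries.

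Pgls encodes the lactonase that opens the ring of the G6pdx product. It was 44.2 and 47.9 FPKM in Ch25h_KO, above both Ch25h_WT libraries at 42.0 and 42.9 FPKM. The log2 change was 0.11 (SE 0.063, limma adjusted p = 0.370), with an interval from -0.052 to 0.28. The approximate counting error of this short transcript reached 4.73% of its value in a library, and its mean was 8.56% higher in Ch25h_KO.

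Pgd encodes 6-phosphogluconate dehydrogenase, which releases carbon dioxide and makes the second NADPH. It was 239.9 and 241 FPKM in the Ch25h_KO libraries, and 276 and 273 FPKM in the Ch25h_WT libraries. Each group was tight and the groups did not overlap, with means of 241 ± 0.858 FPKM in Ch25h_KO and 274 ± 1.63 FPKM in Ch25h_WT (SD, n = 2 libraries each). The log2 change of -0.19 (SE 0.051, 95% interval -0.32 to -0.056) did not pass over all loci (limma adjusted p = 0.158, unadjusted p = 0.0155), and 11.1% of all loci had a lower log2 change. With limma's trend and robust options, under which 7.8% of all loci passed, Pgd passed (adjusted p = 0.0152).

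The genes of the oxidative branch were also set against each other within each library. The ratio of Pgd to G6pdx FPKM was 2.71 and 2.64 in Ch25h_KO and 3.17 and 3.03 in Ch25h_WT, and the ratio of Pgd to Pgls was 5.42 and 5.03 in Ch25h_KO and 6.57 and 6.37 in Ch25h_WT. A ratio within a library is free of scaling between libraries, but it shows unequal change only, not which gene moved. The ratios are given as a description and were not tested. The summed level of the branch was 373 and 380.4 FPKM in Ch25h_KO and 405 and 406 FPKM in Ch25h_WT, of which Pgd made up 63.9% ± 0.686 in Ch25h_KO and 67.7% ± 0.622 in Ch25h_WT (SD, n = 2 libraries each).

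**Figure D2:**
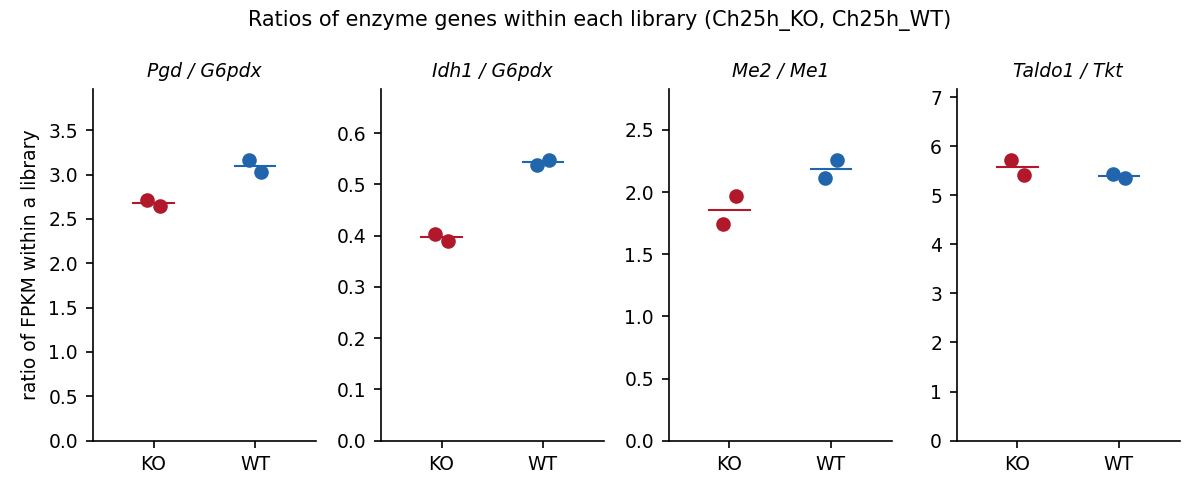
Ratio of the FPKM of 2 enzyme genes within each library (linear axes from 0), with a point for each library and a line at each group's mean. Pgd to G6pdx, Idh1 to G6pdx and Me2 to Me1 are lower in both Ch25h_KO libraries than in both Ch25h_WT libraries, while Taldo1 to Tkt overlaps between the groups.

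In the non-oxidative branch, no gene reached an unadjusted p under 0.05. Rpia, the isomerase that makes ribose 5-phosphate, was 22.3 and 21.7 FPKM in Ch25h_KO and 22.3 and 21.7 FPKM in Ch25h_WT. Its log2 change was 0.0015 (SE 0.053), with a 95% interval from -0.14 to 0.14. Rpe, the epimerase that makes xylulose 5-phosphate from the same substrate, was 9.50 and 9.40 FPKM in Ch25h_KO, just below the 9.79 and 9.64 FPKM of Ch25h_WT. That gap, 2.70% of the Ch25h_WT mean in size, was under the counting error of up to 6.44% of its value in a library.

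Tkt encodes transketolase, which moves two-carbon units between sugar phosphates, and Taldo1 encodes transaldolase, which moves three-carbon units. Tkt, whose locus also holds Mir3076, was 54.1 and 53.4 FPKM in Ch25h_KO and 57.9 and 59.7 FPKM in Ch25h_WT, and the groups did not overlap. Its log2 change of -0.13 (SE 0.053) did not pass (limma adjusted p = 0.270), with an interval from -0.27 to 0.013. Taldo1 was 309.9 and 289 FPKM in Ch25h_KO and 315 and 319.9 FPKM in Ch25h_WT. The Ch25h_KO libraries were spread more widely, with a mean of 299 ± 15.0 FPKM in Ch25h_KO and 317 ± 3.75 FPKM in Ch25h_WT (SD, n = 2 libraries each; log2 change -0.085, limma adjusted p = 0.480). The ratio of Taldo1 to Tkt was 5.73 and 5.40 in Ch25h_KO and 5.44 and 5.36 in Ch25h_WT, so the groups overlapped.

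Idh1 had the largest change of the 10 genes. It encodes the cytosolic and peroxisomal isocitrate dehydrogenase, which makes NADPH and 2-oxoglutarate from isocitrate. It was 35.7 and 35.6 FPKM in the Ch25h_KO libraries, and 46.7 and 49.4 FPKM in the Ch25h_WT libraries. Both Ch25h_KO libraries lay below both Ch25h_WT libraries, and the mean was 35.6 ± 0.0935 FPKM in Ch25h_KO and 48.1 ± 1.90 FPKM in Ch25h_WT, or 0.741 of the Ch25h_WT level (SD, n = 2 libraries each). The gap was wider than the spread of either group and than the counting error, at most 3.59% of the value in a library (about 774 to 1320 fragments). The log2 change was -0.42 (SE 0.057, 95% interval -0.57 to -0.27), and 1.37% of all loci had a lower one. Its adjusted p of 0.0783 (limma over all loci, unadjusted p = 0.00095) missed the threshold, with 117 loci at a smaller p.

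Whether Idh1 passed depended on the model of the spread and on the filter for low values. It passed with limma's trend and robust options (adjusted p = 0.0018) and when only loci averaging 5 FPKM or more were kept, where 2.42% of loci passed (adjusted p = 0.0384), and over all alternatives its adjusted p ran from 0.0018 to 0.326. The ratio of Idh1 to G6pdx was 0.403 and 0.389 in Ch25h_KO and 0.538 and 0.548 in Ch25h_WT. G6pdx is a gene of the oxidative branch whose groups overlapped, so this ratio restates the gap in Idh1. The ratio was not tested. The mitochondrial counterpart Idh2 was lower in level and more variable, at 5.54 and 7.11 FPKM in Ch25h_KO and 6.58 and 7.74 FPKM in Ch25h_WT, and the groups overlapped (log2 change -0.16, SE 0.13).

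Of the malic enzymes, which turn malate into pyruvate, the cytosolic Me1 did not differ beyond its spread, at 6.98 and 6.73 FPKM in Ch25h_KO and 7.00 and 6.75 FPKM in Ch25h_WT. Its log2 change of -0.0030 (SE 0.055) had a 95% interval from -0.15 to 0.14. The mitochondrial Me2 was 12.1 and 13.2 FPKM in Ch25h_KO, below the 14.8 and 15.3 FPKM of Ch25h_WT. Its log2 change was -0.23 (SE 0.065, interval -0.40 to -0.058), which did not pass over all loci (limma adjusted p = 0.168, unadjusted p = 0.0188). The ratio of Me2 to Me1 was 1.74 and 1.97 in Ch25h_KO and 2.11 and 2.26 in Ch25h_WT. Me3, the third malic enzyme, had a mean of 0.0105 FPKM in Ch25h_KO and 0.0108 FPKM in Ch25h_WT, and was listed at 0 in 1 library of each group.

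**Figure D3:**
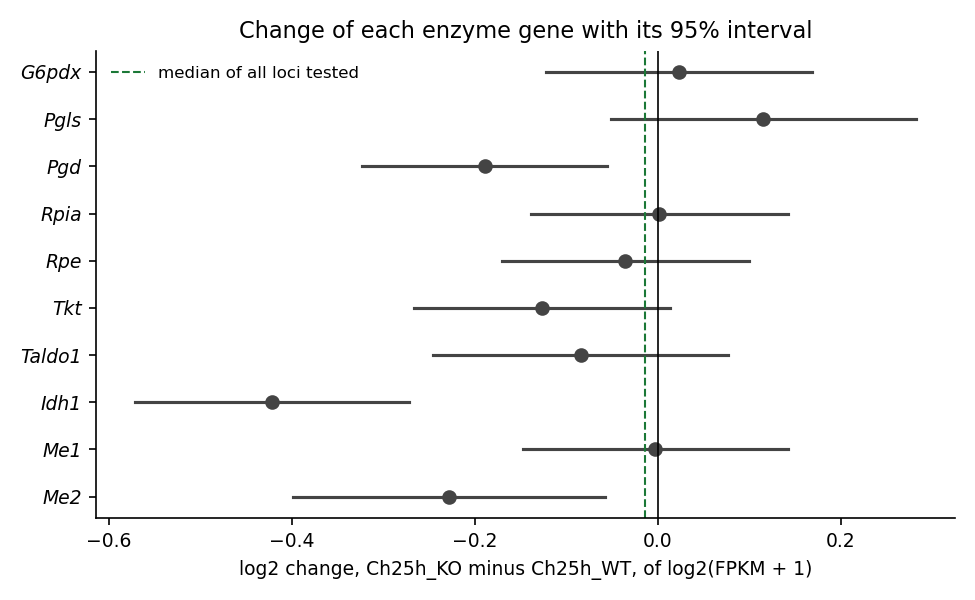
Log2 change of each enzyme gene, Ch25h_KO minus Ch25h_WT, on the log2(FPKM + 1) scale, with its 95% interval from limma and a dashed line at the median of all loci (-0.014). The intervals of Idh1, Me2 and Pgd lie below 0, unadjusted for the 10074 loci tested, and the other 7 include 0.

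Set in order of their mean over the 4 libraries, the 10 genes ran from Taldo1 (308 FPKM, above 97.2% of tested loci) through Pgd, G6pdx, Tkt, Pgls, Idh1, Rpia, Me2 and Rpe to Me1 (6.87 FPKM, above 36.5% of tested loci). The values of neighbours in this order did not overlap over the 4 libraries, except for Pgls and Idh1. In Ch25h_KO, Pgls at 44.2 and 47.9 FPKM stood above Idh1 at 35.7 and 35.6 FPKM, and in Ch25h_WT, Idh1 at 46.7 and 49.4 FPKM stood above Pgls at 42.0 and 42.9 FPKM. The gene with the highest level was Pgd in the oxidative branch and Taldo1 in the non-oxidative branch. The summed levels were 377 ± 5.39 and 384 ± 15.9 FPKM for the oxidative and the non-oxidative branch in Ch25h_KO, and 405 ± 1.32 and 408 ± 4.51 FPKM for the same branches in Ch25h_WT (SD, n = 2 libraries each). The 3 malate and isocitrate enzymes summed to 55.2 ± 0.510 FPKM in Ch25h_KO and 70.0 ± 2.05 FPKM in Ch25h_WT, a gap carried mostly by Idh1.

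The 10 genes together held 0.113% of the total FPKM of each Ch25h_KO library and 0.125% to 0.126% of each Ch25h_WT library. Saa3, an acute phase protein gene, held 17.2% of the total FPKM of both Ch25h_KO libraries and 16.3% to 16.4% of the Ch25h_WT libraries. With Saa3 left out of the total, the share of the 10 genes was 0.136% in both Ch25h_KO libraries and 0.150% in both Ch25h_WT libraries.

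Genes around the pathway were then read out of the same fit by lists. Among 8 tested side enzymes of pentose and ribose metabolism, 0 passed in either direction with limma. At a limma unadjusted p under 0.05, 1 was lower, against 11.5% of all loci. The median log2 change of the list was 0.011. The one with the smallest p was Pgm2, which interconverts ribose 1-phosphate and ribose 5-phosphate, at 12.3 and 11.6 FPKM in Ch25h_KO and 16.4 and 17.1 FPKM in Ch25h_WT (log2 change -0.46, SE 0.059, limma adjusted p = 0.0783). H6pd, the enzyme of the endoplasmic reticulum that carries out the first steps of the pathway there, was 29.8 ± 1.55 FPKM in Ch25h_KO and 32.0 ± 0.419 FPKM in Ch25h_WT (SD, n = 2 libraries each).

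Of 9 other tested genes, listed around the supply of NADPH and NADP, 0 passed with limma, and the median was -0.014. At a limma unadjusted p under 0.05, 2 were higher, against 9.38% of all loci, and 0 lower, against 11.5%. The list was not limited to enzymes that make NADPH or NADP, and the cofactor that each uses was not examined. The mitochondrial folate enzyme Mthfd2 was 112.7 and 113 FPKM in Ch25h_KO, above the 89.6 and 91.2 FPKM of Ch25h_WT (log2 change 0.32, SE 0.051, limma adjusted p = 0.0966). Its relative Mthfd2l was 2.35 and 2.34 FPKM in Ch25h_KO and 1.97 and 1.85 FPKM in Ch25h_WT. Nadk, the kinase that makes NADP, was 64.3 ± 1.44 FPKM in Ch25h_KO and 67.5 ± 0.383 FPKM in Ch25h_WT (SD, n = 2 libraries each; log2 change -0.068).

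Genes that spend NADPH were read next. Of 7 tested subunits of the phagocyte NADPH oxidase and its Rac GTPases, 0 passed and 0 had an unadjusted p under 0.05 with limma, and the median was 0.024. The catalytic subunit Cybb was 661 ± 3.20 FPKM in Ch25h_KO and 694 ± 19.5 FPKM in Ch25h_WT, and its partner Cyba was 695 ± 0.862 FPKM in Ch25h_KO and 665 ± 18.0 FPKM in Ch25h_WT (SD, n = 2 libraries each). Of 16 tested reductases and heme enzymes, 0 passed with limma (1 higher and 2 lower at unadjusted p under 0.05, against 9.38% and 11.5% of all loci, median -0.061). Por, which passes electrons from NADPH to cytochrome P450 enzymes, was 141 and 145 FPKM in Ch25h_KO and 128 and 119 FPKM in Ch25h_WT. The quinone reductase Nqo1 was 5.44 and 4.29 FPKM in Ch25h_KO and 6.93 and 8.73 FPKM in Ch25h_WT (log2 change -0.59, SE 0.14, limma adjusted p = 0.137).

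Of 10 tested genes of fatty acid and sterol synthesis and its carbon supply, 0 passed with limma (3 lower at unadjusted p under 0.05, against 11.5% of all loci), and the median was -0.11. Fasn, the NADPH-consuming fatty acid synthase, was 10.1 and 10.7 FPKM in Ch25h_KO and 12.8 and 12.7 FPKM in Ch25h_WT. Of 10 tested NRF2 regulators and targets, 0 passed with limma, and the median was 0.0056. At a limma unadjusted p under 0.05, 1 was lower (Gss), against 11.5% of all loci. Nfe2l2, which encodes NRF2, was 219 and 220.2 FPKM in Ch25h_KO and 206 and 216 FPKM in Ch25h_WT. Of 16 tested glycolysis genes, 2 fell over all loci (limma adjusted p = 0.035 for each), where 0.437% of all loci passed. At a limma unadjusted p under 0.05, 9 were lower and 1 higher, against 11.5% and 9.38% of all loci, and the median was -0.18. The 2 that passed were Pfkl and Tpi1. Pfkl, the phosphofructokinase just past the branch point, was 55.9 and 55.8 FPKM in Ch25h_KO and 87.1 and 85.0 FPKM in Ch25h_WT. Tpi1, which handles the triose phosphates that the pentose pathway returns, was 120 and 124 FPKM in Ch25h_KO and 195 and 187 FPKM in Ch25h_WT.

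**Figure D4:**
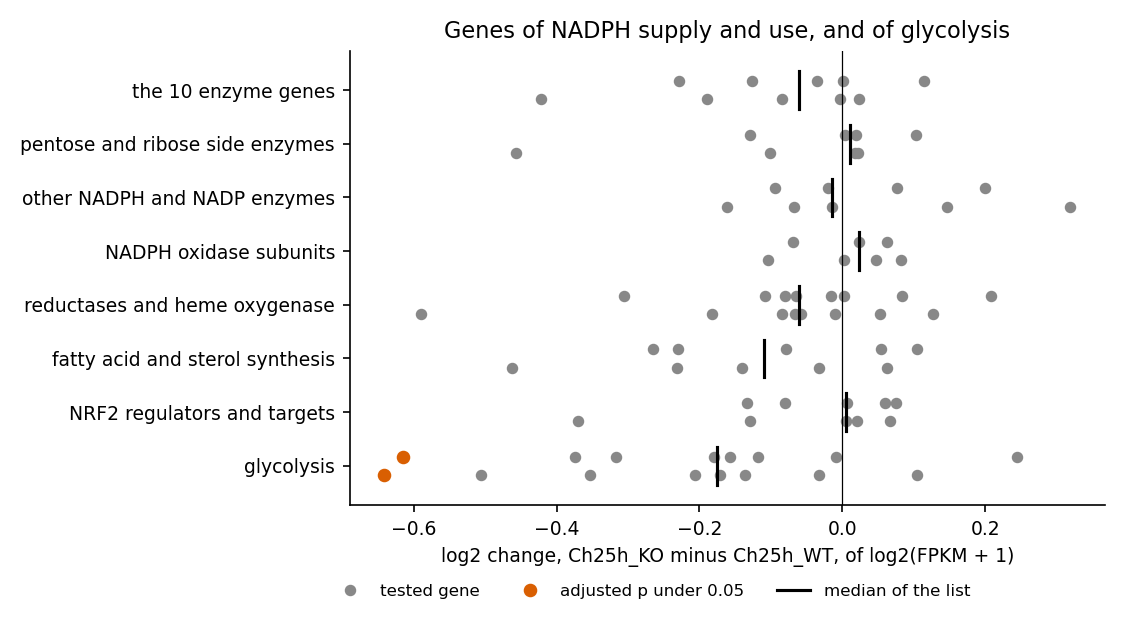
Log2 change, Ch25h_KO minus Ch25h_WT, of each tested gene of the 10 enzyme genes and 7 surrounding lists, with a bar at the median of each list and genes past the adjusted threshold in orange. The 2 orange points are Pfkl and Tpi1, and the medians lie between -0.18 for glycolysis and 0.024 for the NADPH oxidase.

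Markers of other cells were summed in the same libraries. Summed neutrophil markers (9 of 10 in the table) were 164 and 165 FPKM in Ch25h_KO and 112 and 121 FPKM in Ch25h_WT. The largest part was S100a8, at 99.0 and 98.7 FPKM in Ch25h_KO and 56.3 and 66.6 FPKM in Ch25h_WT. Most of the rest was Csf3r, at 48.2 and 48.0 FPKM in Ch25h_KO and 39.9 and 38.6 FPKM in Ch25h_WT, followed by S100a9. The granule genes Mpo, Elane, Camp, Ngp, Ltf and Mmp8 each averaged under 1 FPKM over the 4 libraries. Mpo and Elane were at 0 in both Ch25h_KO libraries, and Ngp and Ltf at 0 in both Ch25h_WT libraries. Camp and Mmp8 had lower means in Ch25h_KO (0.675 and 0.726 FPKM) than in Ch25h_WT (1.13 and 0.924 FPKM). Summed mast cell and basophil markers (8 of 8) were 156 and 159 FPKM in Ch25h_KO and 223 and 229 FPKM in Ch25h_WT. Summed B cell markers (5 of 6) were 285 and 300.3 FPKM in Ch25h_KO and 317 and 321 FPKM in Ch25h_WT, and erythroid markers (6 of 6) were 44.8 and 47.5 FPKM in Ch25h_KO and 31.4 and 34.3 FPKM in Ch25h_WT. T and NK cell markers (6 of 7) summed to 6.02 and 7.20 FPKM in Ch25h_KO and 5.27 and 5.86 FPKM in Ch25h_WT, and mesothelial and fibroblast markers (8 of 8) to 4.85 and 4.03 FPKM in Ch25h_KO and 1.52 and 1.39 FPKM in Ch25h_WT. Eosinophil markers (6 of 6) summed to 2.42 and 2.56 FPKM in Ch25h_KO and 2.32 and 2.09 FPKM in Ch25h_WT, with Epx and Ear1 at 0 in all 4 libraries. Summed macrophage markers (7 of 7, mostly Lyz2) were 21932 and 21351 FPKM in Ch25h_KO and 21548 and 22385 FPKM in Ch25h_WT. This sum follows Lyz2. Of the 7 markers, 2 lay wholly lower (Adgre1 and Csf1r) and 1 wholly higher (Fcgr1) in Ch25h_KO, against 30.3% and 23.4% of all loci. The part of other cells in the values of Idh1, Pgd and Me2 was not tested.

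**Figure D5:**
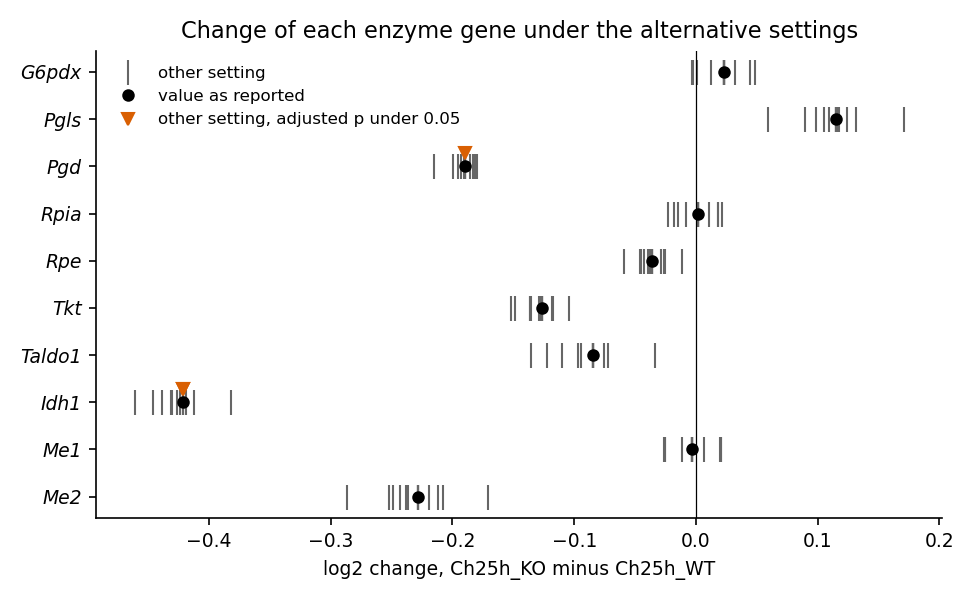
Log2 change of each enzyme gene, Ch25h_KO minus Ch25h_WT, as reported (dots) and under 15 alternative settings (ticks), with triangles where the adjusted p was under 0.05. Idh1 stayed between -0.46 and -0.38, Me2 between -0.29 and -0.17 and Pgd between -0.21 and -0.18, while G6pdx, Rpia and Me1 lay on both sides of 0.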

How the data were processed

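RNA-seq values of 4 libraries were used, 2 per group. Per the submitters' processing notes, bcl2fastq, TopHat2 2.0.14, Cufflinks 2.2.1 and mouse build mm9 were named; their settings and roles, the annotation, strandedness and scaling were not given in the sources used. The table as deposited by the authors holds values that fit FPKM in range and decimals, though the header names no unit. Its 24192 lines were joined by locus identifier into 23735 loci (340 with more than 1 symbol). Every per-sample column was used. Values per locus do not separate overlapping genes or close copies.

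Because FPKM are not counts, log2(FPKM + 1) was tested with limma 3.58.1 in R 4.3.3 over the 10074 loci averaging 1 FPKM or more, with a genotype term only and p-values adjusted by Benjamini-Hochberg over all of them; folds on this scale understate changes of low genes. The test was checked on simulated data. Relative depth came from the steps of low values: after scaling, of 3355 loci averaging under 0.2 FPKM, 94.1% were whole multiples of a common step (tolerance 0.01 fragments, wider in proportion for larger numbers). Fragments per gene are approximate, from the longest coding transcript in GENCODE vM21, and cover counting error only. All 10 enzyme genes were named, with the called genes and up to 3 of smallest p in each direction from each surrounding list; Me3, G6pd2, Saa3 and single marker genes were added after their values were seen. The enzyme genes and lists were chosen with earlier results of these data known. Alternatives varied the pseudocount, filter, spread model, scaling, libraries, replicate block, joining of lines and motif letters.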

Additional observations from a re-analysis of the deposited data

How the results depend on the processing

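The count of loci with an adjusted p under 0.05 (44 with limma) was 29 with a pseudocount of 0.5, 18 with no filter on low values, 175 with a mean of at least 5 FPKM, 786 with trend and robust options, and 13 to 21 with each library left out in turn, where a group held a lone library assumed to vary like the others. Of the 10 enzyme genes, 1 passed with a mean of at least 5 FPKM (Idh1) and 2 passed with trend and robust options (Idh1 and Pgd), and 0 in the other 13 settings. The cause of these shifts was not tested. Of 150 log2 changes of the 10 genes under the 15 settings, 10 changed sign, all in G6pdx, Rpia and Me1, whose changes were near 0. Rpia was -0.0081 with upper quartile scaling, -0.023 with Saa3 left out of the totals, and -0.018 to 0.021 with a library left out. Me1 was 0.021 with quantile normalization, 0.0065 with median centring, and -0.026 to 0.020 with a library left out. G6pdx was -0.0025 with Saa3 left out of the totals, and -0.0030 to 0.048 with a library left out. The scalings moved the median of all loci by less than 0.1.

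The replicate numbers gave no sign of pairing (correlation of replicate deviations between groups 0.012 across loci). With the replicate block, 6 loci passed in place of 44 and 0 of the 10 enzyme genes, as without it. With 2 libraries a group and 2 residual degrees of freedom, the 95% intervals of the 10 enzyme genes reached 0.13 to 0.17 to either side on the log2 scale.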
